A study of Mus musculus with 24 samples.

Results

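The transcripts of 10 genes for tumour necrosis factor ligands, interleukins and colony-stimulating factors (Tnf, Tnfsf10, Il6, Il10, Il15, Il15ra, Lif, Csf1, Csf2 and Csf3) were followed through mouse macrophage and dendritic cell cultures given the STING agonist DMXAA (vadimezan). They were chosen by gene symbol from the 54532 genes of the deposited table, and each symbol matched 1 row. The series held 24 RNA-seq libraries in 8 groups of 3. Bone marrow-derived macrophages (BMDMs) were grown with supernatant of L929 cells and bone marrow-derived dendritic cells (BMDCs) with GM-CSF and IL-4. All donor mice carried 2 floxed alleles of Tmem173, the gene of the DNA-sensing adaptor STING, and all had been given tamoxifen. Mice with the floxed alleles alone gave the groups with the label WT. Mice that also carried a tamoxifen-inducible Cre under the myeloid gene Lyz2 (Tmem173 fl/fl Lyz2-Cre ert2) gave the groups with the label CRE. Each culture was either a control (CT) or DMXAA-treated (DX). The series text gives the DMXAA dose as 40 µM, while the study's methods give it in µg/mL, so the concentration is uncertain. The exposure time and donor age for these libraries are not given in the sources used here. Any loss of STING in the CRE groups thus depends on Lyz2 activity in the donor's myeloid cells, and Lyz2 transcript was at 1177 to 8108 CPM (counts scaled to a common library total) in the BMDC libraries and 3126 to 15860 CPM in the BMDM libraries numbered 1 and 2. Nothing in the labels says whether the libraries of a group came from separate mice, so the p-values measure the spread between these libraries, which may be technical.

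STING is activated at the endoplasmic reticulum by the cyclic dinucleotide made when cytosolic DNA is sensed, and it signals through TBK1 to the transcription factors IRF3 and NF-κB. Macrophages and dendritic cells answer such signals with secreted proteins of distinct roles. TNF and TRAIL (the product of Tnfsf10) bind death-domain receptors and drive inflammation or apoptosis. IL-6 and LIF signal through the shared receptor chain gp130, and IL-10 restrains inflammatory gene expression. IL-15 is carried to the cell surface by its receptor chain IL-15Rα and presented to natural killer and CD8+ T cells. M-CSF (Csf1), GM-CSF (Csf2) and G-CSF (Csf3) support the growth of macrophages, dendritic cells and neutrophils, and the first 2 of these proteins were also supplied to the cultures, by the L929 supernatant and as the added GM-CSF.

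Each BMDM library held 16470157 to 18912887 gene counts, and each BMDC library 15657347 to 18080027. The 4 BMDM libraries numbered 3, 1 in each BMDM group, stood apart. An 8-gene macrophage list summed to 42.2 to 70.6 CPM there, against 9585 to 21350 in the BMDM libraries numbered 1 and 2. C1qa was at 0 in all 4, a 4-gene leukocyte list that includes Ptprc summed to at most 1.22 CPM against at least 1792, and an 8-gene fibroblast list summed to 12420 to 19260 CPM against 33.1 to 457. These 4 libraries therefore went against their label and are described apart, and every BMDM test used the 8 libraries numbered 1 and 2. Among those 8, both WT-labelled libraries numbered 2 carried more of the fibroblast list, 457 CPM in control and 439 CPM under DMXAA, than the other 6, which held 33.1 to 66.6 CPM. In BMDCs an 8-gene dendritic cell list summed to 5975 to 9991 CPM. The macrophage list was lower in the CRE-labelled BMDC libraries numbered 2 (2164 and 2043 CPM) than in the other 10 BMDC libraries (5958 to 8947 CPM), and a 6-gene neutrophil list was higher, at 336 and 153 CPM against 6.96 to 21.8 CPM, with S100a8 and S100a9 its most abundant genes. In both treatments, CRE-labelled BMDC library 1 lay as close to WT-labelled library 3, and CRE-labelled library 3 to WT-labelled library 2, as no other BMDC pair did: the SD of the log2 ratio over genes was 0.17 to 0.185 in these 4 pairs and 0.256 to 0.766 in the other 26. On the FPKM scale, which divides reads by transcript length and library size, Tmem173 averaged 38.6 ± 11.8 (SD, n = 3) in WT-labelled and 28.3 ± 8.59 (n = 3) in CRE-labelled BMDC controls, a log2 difference of −0.43 with an adjusted p of 1. In BMDMs (n = 2 per group) it averaged 12.3 ± 3.37 and 9.60 ± 1.19 in control, a log2 difference of −0.39 with an adjusted p of 0.772, and 27.3 ± 6.40 and 9.63 ± 0.723 under DMXAA, a log2 difference of −1.45 with an adjusted p of 0.00921. The targeted transcript was thus still measured in every CRE-labelled group, by gene counts that do not show which exons were removed.

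DMXAA raised most of the 10 transcripts in BMDCs of both labels and in WT-labelled BMDMs, and fewer in CRE-labelled BMDMs. A call is an adjusted p (edgeR quasi-likelihood, Benjamini-Hochberg over all genes tested) under 0.05. The fit was by group and did not pair libraries by number. In WT-labelled BMDCs 7 of the 10 were called, all higher, where 32.2% of the 12126 genes tested were called and 17% were called higher. In CRE-labelled BMDCs 6 of the 10 were called, all higher, against 25.4% called and 14% called higher. WT-labelled BMDMs had 6 of the 10 called, all higher, against 39.2% of 11569 genes called and 18.4% called higher. CRE-labelled BMDMs had 3 of the 10 called, all higher, against 10% called and 7.28% called higher. Il10, Csf2 and Csf3 in BMDCs, and Csf2 and Csf3 in BMDMs, did not reach the filter of 1 FPKM in 3 BMDC or 2 BMDM libraries and are described by their counts. Tnfsf10 in both cell types, and Il6, Il10 and Il15ra in BMDMs, reached it only through treated libraries. Their tests were bound to meet a difference, and the counts of called members in BMDMs include them. Lif in BMDMs reached the filter only through the WT-labelled libraries numbered 2, control and treated. The deposited FPKM values divide by a library size that the authors adjusted to 1.03 to 1.16 times the total count in controls and 0.687 to 0.893 times in treated libraries (BMDM number 3 aside, at 1.26 to 1.33). The fit scales the libraries too, by TMM. FPKM ratios between treatments in WT-labelled BMDCs lay slightly above the fitted fold changes, as for Tnf (9.42 against 9.26) and Il6 (12.84 against 12.6).

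**Figure D1:**
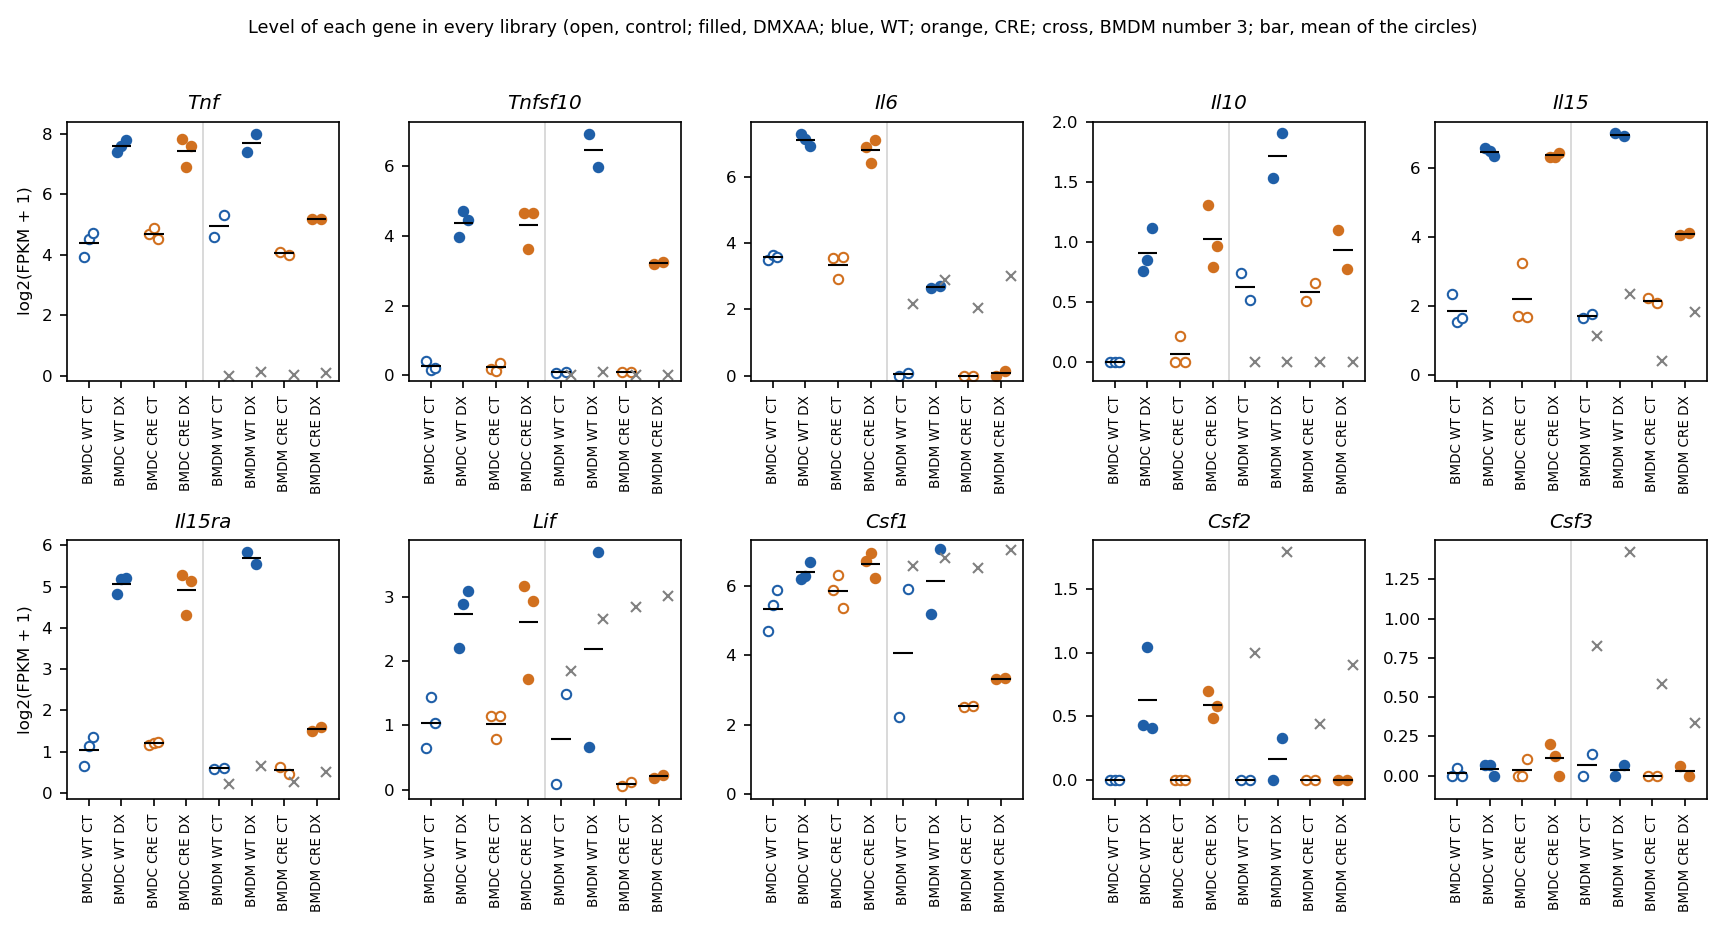
FPKM of the 10 genes in each of the 24 libraries, on a log2(FPKM + 1) axis, grouped by cell type, label and treatment. Circles are the libraries used in the tests, bars are the means of the circles, and crosses are the BMDM libraries numbered 3, which lie below the circles for Tnf and Il15ra under DMXAA and above the other BMDM libraries for Csf2 and Csf3.

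Tnf (ENSMUSG00000024401, GRCm38 chr17:35199381-35202007, minus strand) encodes the prototype inflammatory cytokine of its family. In WT-labelled BMDCs it measured 14.3, 21.8 and 25.2 FPKM in control libraries 1 to 3 and 166, 191 and 221 FPKM under DMXAA. CRE-labelled BMDCs gave 24.8, 28.3 and 21.8 FPKM in control and 223, 118 and 190 FPKM under DMXAA. Every treated BMDC library lay above every control, and the treated ranges of the labels overlapped. The log2 fold change was 3.21 ± 0.29 (SE), 9.26-fold, in WT-labelled BMDCs (adjusted p = 1.33e-05) and 2.81 ± 0.28, 6.99-fold, in CRE-labelled BMDCs (adjusted p = 3.6e-05). In BMDMs 1 and 2 it measured 23.0 and 38.5 FPKM in WT-labelled controls, 166 and 253 FPKM under DMXAA, 16.1 and 14.9 FPKM in CRE-labelled controls and 35.0 and 34.9 FPKM under DMXAA. Treated WT-labelled BMDMs thus reached or passed the range of treated BMDCs, whereas treated CRE-labelled BMDMs lay within the range of WT-labelled controls. Tnf rose by 2.66 ± 0.31 on the log2 scale in WT-labelled BMDMs (adjusted p = 0.000975), and the 1.15 ± 0.30 in CRE-labelled BMDMs missed the threshold (adjusted p = 0.059). This change was of the same size and called by DESeq2 (adjusted p = 0.00238) and by limma-voom with the spread modelled by label (adjusted p = 2.29e-05), and not called without any 1 of the 4 CRE-labelled libraries (adjusted p from 0.234 to 0.316).

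Tnfsf10 (ENSMUSG00000039304, chr3:27317028-27342427, plus strand), the gene of TRAIL, was near 0 in every control library. WT-labelled BMDCs went from 0.338, 0.116 and 0.164 FPKM in control to 14.7, 25.2 and 20.9 FPKM under DMXAA. CRE-labelled BMDCs went from 0.139, 0.0905 and 0.285 FPKM to 24.4, 11.3 and 23.9 FPKM. The treated values of the BMDC labels overlapped, and no treated value was near a control. In BMDMs the WT-labelled libraries went from 0.0558 and 0.0630 FPKM to 120.4 and 62.1 FPKM, the highest values of the series, and the CRE-labelled from 0.0743 and 0.0766 FPKM to 8.19 and 8.47 FPKM. All 4 responses were called, with log2 fold changes of 6.60 ± 0.53 and 6.83 ± 0.54 in WT- and CRE-labelled BMDCs (adjusted p = 5.65e-06 and 5.41e-06) and 10.44 ± 0.45 and 6.74 ± 0.41 in WT- and CRE-labelled BMDMs (adjusted p = 2.01e-05 and 0.000173). Treated CRE-labelled BMDMs therefore lay far above their controls and below every treated library of the other groups.

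Il15 (ENSMUSG00000031712, chr8:82331632-82403222, minus strand) and Il15ra (ENSMUSG00000023206, chr2:11705290-11734317, plus strand), ligand and presenting receptor chain, rose in all 4 cultures. Il15 in WT-labelled BMDCs measured 4.15, 1.89 and 2.16 FPKM in control and 93.9, 89.0 and 80.3 FPKM under DMXAA, and in CRE-labelled BMDCs 2.27, 8.44 and 2.20 FPKM and 79.1, 78.9 and 85.0 FPKM. CRE-labelled control library 2, the library with the low macrophage list, was the highest control. In BMDMs Il15 measured 2.17 and 2.43 FPKM in WT-labelled controls, 127.3 and 120.0 FPKM under DMXAA, 3.71 and 3.23 FPKM in CRE-labelled controls and 15.6 and 16.3 FPKM under DMXAA. Treated CRE-labelled BMDMs stood alone between the controls and the other treated groups. The log2 fold changes were 4.98 ± 0.52 and 4.21 ± 0.50 in WT- and CRE-labelled BMDCs (adjusted p = 4.35e-05 and 0.000136), and 5.64 ± 0.16 and 2.18 ± 0.14 in WT- and CRE-labelled BMDMs (adjusted p = 7.32e-06 and 0.000193).

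Il15ra followed the same order at lower levels. WT-labelled BMDCs gave 0.582, 1.19 and 1.55 FPKM in control and 27.4, 35.3 and 36.1 FPKM under DMXAA, and CRE-labelled BMDCs 1.25, 1.31 and 1.35 FPKM and 37.8, 18.89 and 34.3 FPKM. The treated BMDC ranges overlapped, CRE-labelled library 2 being the lowest. WT-labelled BMDMs gave 0.485 and 0.533 FPKM in control and 56.4 and 46.1 FPKM under DMXAA, and CRE-labelled BMDMs 0.553 and 0.374 FPKM and 1.84 and 2.05 FPKM. In treated CRE-labelled BMDMs it thus stayed close to the highest BMDC controls. Log2 fold changes were 4.87 ± 0.38 and 4.52 ± 0.37 in BMDCs (adjusted p = 4.71e-06 and 7.91e-06) and 6.54 ± 0.24 and 2.05 ± 0.21 in BMDMs (adjusted p = 1.12e-05 and 0.00204), WT-labelled first.

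Il6 (ENSMUSG00000025746, chr5:30013114-30019981, plus strand) was measured in BMDC controls and nearly absent from BMDM controls. WT-labelled BMDCs gave 10.3, 11.49 and 11.1 FPKM in control and 158, 142 and 122 FPKM under DMXAA, and CRE-labelled BMDCs 10.8, 6.59 and 11.02 FPKM and 121, 85.4 and 139 FPKM. CRE-labelled library 2 was the lowest of each treatment, and the labels overlapped. The log2 fold changes of 3.65 ± 0.25 and 3.58 ± 0.25 in WT- and CRE-labelled BMDCs were both called (adjusted p = 1.52e-06 and 1.87e-06). In WT-labelled BMDMs it had 0 and 3 reads in control (0 and 0.0586 FPKM) and 144 and 194 reads (5.25 and 5.53 FPKM) under DMXAA, a ratio of 169 with a 95% interval of 57.3 to 822 that covers counting error only. CRE-labelled BMDMs had 0 reads in both controls and 0 and 4 reads (0.102 FPKM) under DMXAA, too few for a fold change. The rise in WT-labelled BMDMs was called (log2 7.26 ± 1.12, adjusted p = 0.00465) but not by limma-voom (adjusted p = 0.0524). Its size rests on 3 reads, ranging from 6.34 without WT-labelled control library 1 to 10.73 without control library 2. Treated WT-labelled libraries 1 and 2 held 33.1 and 439 CPM of the fibroblast list, and its part in these Il6 values was not tested.

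Lif (ENSMUSG00000034394, chr11:4257557-4272514, plus strand), the other gp130 ligand among the 10, rose in BMDCs by 2.37 ± 0.52 on the log2 scale in the WT-labelled (adjusted p = 0.00469) and by 2.41 ± 0.52 in the CRE-labelled libraries (adjusted p = 0.00576). WT-labelled values were 0.570, 1.72 and 1.04 FPKM in control and 3.61, 6.40 and 7.56 FPKM under DMXAA, and CRE-labelled values 1.21, 0.719 and 1.22 FPKM and 8.05, 2.29 and 6.64 FPKM. Treated and control ranges did not overlap in either label. In BMDMs the WT-labelled libraries 1 and 2 differed by a larger ratio from each other than from their own treatment, with 0.0563 and 1.798 FPKM in control and 0.590 and 12.01 FPKM under DMXAA, and the log2 fold change of 2.65 ± 1.56 was not called (adjusted p = 0.226). CRE-labelled BMDMs stayed at 0.0386 to 0.171 FPKM.

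Il10 (ENSMUSG00000016529, chr1:131019845-131024974, plus strand) was low throughout. WT-labelled BMDCs had no read in any control and 13, 16 and 23 reads (0.693, 0.802 and 1.16 FPKM) under DMXAA, at least 7.37-fold higher against a floor of 3 reads per library. CRE-labelled BMDCs gave 0, 0.162 and 0 FPKM in control, the 0.162 FPKM being 4 reads in library 2, and 1.48, 0.737 and 0.956 FPKM under DMXAA. In both labels every treated library lay above every control, and without the filter on low values both differences were called (adjusted p = 6.6e-05 and 0.00207). BMDMs expressed Il10 already in control, at 0.673 and 0.434 FPKM in WT-labelled and 0.427 and 0.577 FPKM in CRE-labelled libraries, and gave 1.89 and 2.75 FPKM and 1.15 and 0.709 FPKM under DMXAA. It rose in WT-labelled BMDMs (log2 1.96 ± 0.45, adjusted p = 0.0144), having reached the filter only through treated libraries, and the call was lost without either WT-labelled library 2 (adjusted p = 0.0543 and 0.0566), and the 0.85 ± 0.46 in CRE-labelled BMDMs was not called (adjusted p = 0.286).

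Csf1 (ENSMUSG00000014599, chr3:107741048-107760469, minus strand), the gene of M-CSF, had the highest control level of the 10 in BMDCs and the smallest response. WT-labelled BMDCs measured 24.9, 42.9 and 58.9 FPKM in control and 72.4, 77.9 and 103 FPKM under DMXAA, and CRE-labelled BMDCs 59.0, 78.5 and 40.5 FPKM and 105.2, 124 and 73.8 FPKM. The WT-labelled treatments did not overlap, whereas the lowest treated CRE-labelled library lay below the highest CRE-labelled control. The log2 fold change of 0.97 ± 0.34 in WT-labelled BMDCs was called (adjusted p = 0.0467), but not in 7 of the 12 fits that left out 1 BMDC library (adjusted p up to 0.152), and the 0.74 ± 0.34 in CRE-labelled BMDCs was not called (adjusted p = 0.133). Treated and control BMDC libraries of the same number and label deviated together from their group means. With number as a block within label both changes were called, at 1.04 (adjusted p = 0.000308) and 0.76 (adjusted p = 0.00227), and over all genes the calls went from 3904 to 5911 in WT-labelled and from 3084 to 5181 in CRE-labelled BMDCs.

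In BMDMs the 6 highest Csf1 values lay in the 6 libraries with the most of the fibroblast list. WT-labelled library 1 measured 3.67 FPKM in control and 35.6 FPKM under DMXAA, and WT-labelled library 2 measured 59.98 and 134.6 FPKM. CRE-labelled libraries measured 4.75 and 4.80 FPKM in control and 8.91 and 9.16 FPKM under DMXAA, and the libraries numbered 3, which held the most of that list, 94.9, 112, 90.4 and 132 FPKM. Library 2 of the WT-labelled BMDMs lay nearer to the libraries numbered 3 than to library 1, and the part of the fibroblast list in these values was not tested. Neither the WT-labelled log2 fold change of 1.30 ± 1.12 (adjusted p = 0.409) nor the CRE-labelled 0.90 ± 1.13 (adjusted p = 0.656) was called. With both WT-labelled libraries 2 left out, a fit chosen after seeing the data, the WT-labelled log2 changes were 3.17 for Csf1 and 3.24 for Lif. This leaves 1 library in each WT-labelled group and the spread to the closely matched CRE-labelled pairs, so the fit cannot judge these changes.

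Csf2 (ENSMUSG00000018916, chr11:54247271-54249667, minus strand) and Csf3 (ENSMUSG00000038067, chr11:98701263-98703629, plus strand) were at the limit of detection. No BMDC control had a Csf2 read, while WT-labelled BMDCs under DMXAA had 4, 13 and 4 reads (0.349, 1.07 and 0.331 FPKM) and CRE-labelled BMDCs 7, 5 and 6 reads (0.627, 0.402 and 0.494 FPKM). Against a floor of 3 reads per library these are at least 2.96-fold and at least 2.58-fold higher, and every treated BMDC library lay above the controls. In BMDMs 1 and 2 the only Csf2 reads were 3 in treated WT-labelled library 2. Csf3 had at most 3 reads in any BMDC library or BMDM library numbered 1 or 2, so a response was not detectable at this depth. Both genes had more reads in the BMDM libraries numbered 3 than in the other BMDMs: Csf2 had 6 to 48 and Csf3 9 to 58.

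**Figure D2:**
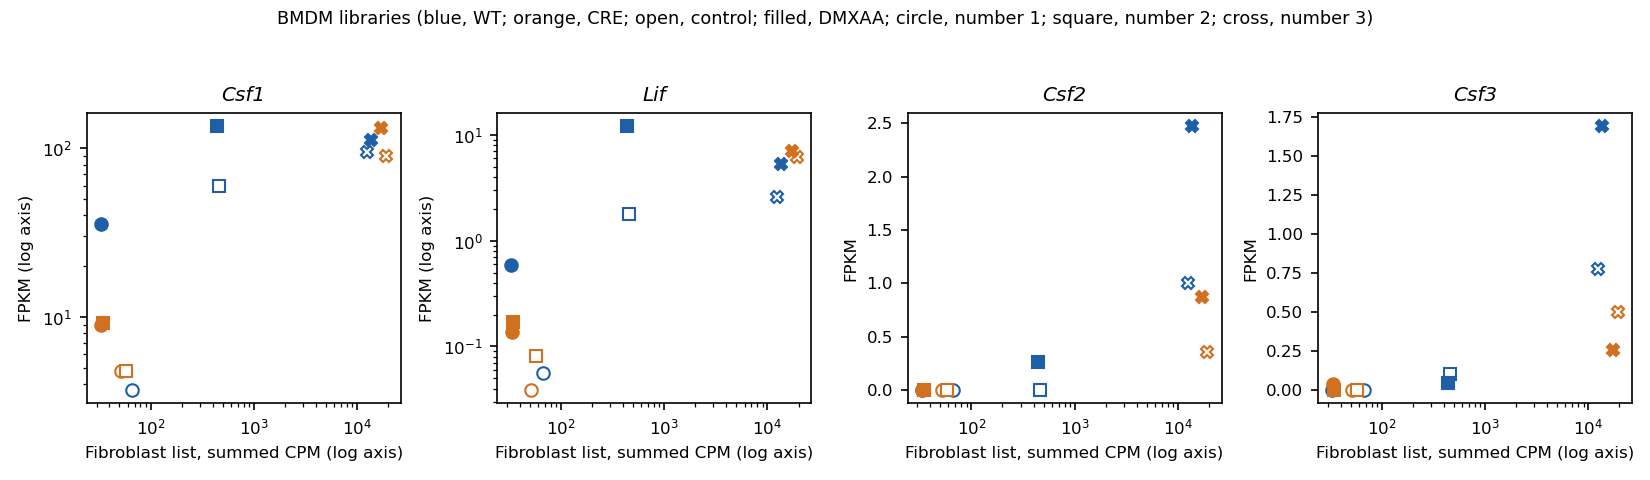
Summed CPM of the 8-gene fibroblast list (x axis, log scale) against FPKM of Csf1, Lif, Csf2 and Csf3 (y axis) in the 12 BMDM libraries, each point 1 library. The libraries numbered 3 lie at 12420 to 19260 CPM, both WT-labelled libraries numbered 2 at 439 and 457 CPM, and the other 6 at 33.1 to 66.6 CPM, with Csf1 and Lif high in the first 2 sets.

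The stretches of 250 bases before the annotated start were read for the members that have an entry in the RefSeq promoter table (GRCm38.p6), 7 of the 10 with 8 windows, and not for Il10, Il15 and Csf3. These starts are not always the gene bounds given above. The Tnfsf10 window ends at 27317076, inside the gene from 27317028. That of Csf2 (chr11:54249900-54250149, minus strand) stops short of the gene end at 54249667, so the bases between were not read. They are shown for Il6 and Csf1, the members with an NF-κB match, and for Tnfsf10, the member with the largest fitted fold change, which had none of the motifs searched. Capitals mark matches, and each sequence runs 5′ to 3′ on the strand of its gene, at chr5:30012864-30013113 (plus) for Il6, chr3:107760470-107760719 (minus) for Csf1 and chr3:27316827-27317076 (plus) for Tnfsf10.
Il6: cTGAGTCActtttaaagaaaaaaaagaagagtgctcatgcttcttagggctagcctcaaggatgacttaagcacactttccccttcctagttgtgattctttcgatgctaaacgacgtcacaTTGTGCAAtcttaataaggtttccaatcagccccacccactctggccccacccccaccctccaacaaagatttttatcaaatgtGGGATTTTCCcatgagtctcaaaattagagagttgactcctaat
Csf1: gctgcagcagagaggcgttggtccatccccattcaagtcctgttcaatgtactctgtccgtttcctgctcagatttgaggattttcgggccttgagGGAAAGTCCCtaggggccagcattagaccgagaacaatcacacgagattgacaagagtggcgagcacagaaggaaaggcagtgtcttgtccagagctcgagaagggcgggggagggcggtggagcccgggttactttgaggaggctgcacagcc
Tnfsf10: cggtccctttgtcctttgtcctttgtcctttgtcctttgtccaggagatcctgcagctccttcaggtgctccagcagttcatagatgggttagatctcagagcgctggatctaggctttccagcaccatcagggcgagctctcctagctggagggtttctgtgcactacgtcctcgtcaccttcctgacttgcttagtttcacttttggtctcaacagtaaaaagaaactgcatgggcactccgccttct
Both strands were searched for 4 motifs, and none of the matches overlapped. The NF-κB consensus was found at bases −44 to −35 of Il6 and −154 to −145 of Csf1, and in 3.9% of 32851 promoter windows of the same length. The AP-1 motif TGANTCA was found in Il6 (−249 to −243), in 1 of the 2 windows of Il15ra (−30 to −24) and in Lif (−228 to −222), and in 6.75% of all windows. The C/EBP motif (TTGC, NN, AA without gaps) was found in Il6 (−128 to −121) and Csf2 (−145 to −138), and in 9.56% of all windows. An interferon-response-like motif (GAAA and GAAA separated by NN) was found in 2.98% of all windows and in none of the members' 8. Of the windows read, that of Il6 held 3 of the 4 motifs. A match of letters is a description and not evidence of binding.

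**Figure D3:**
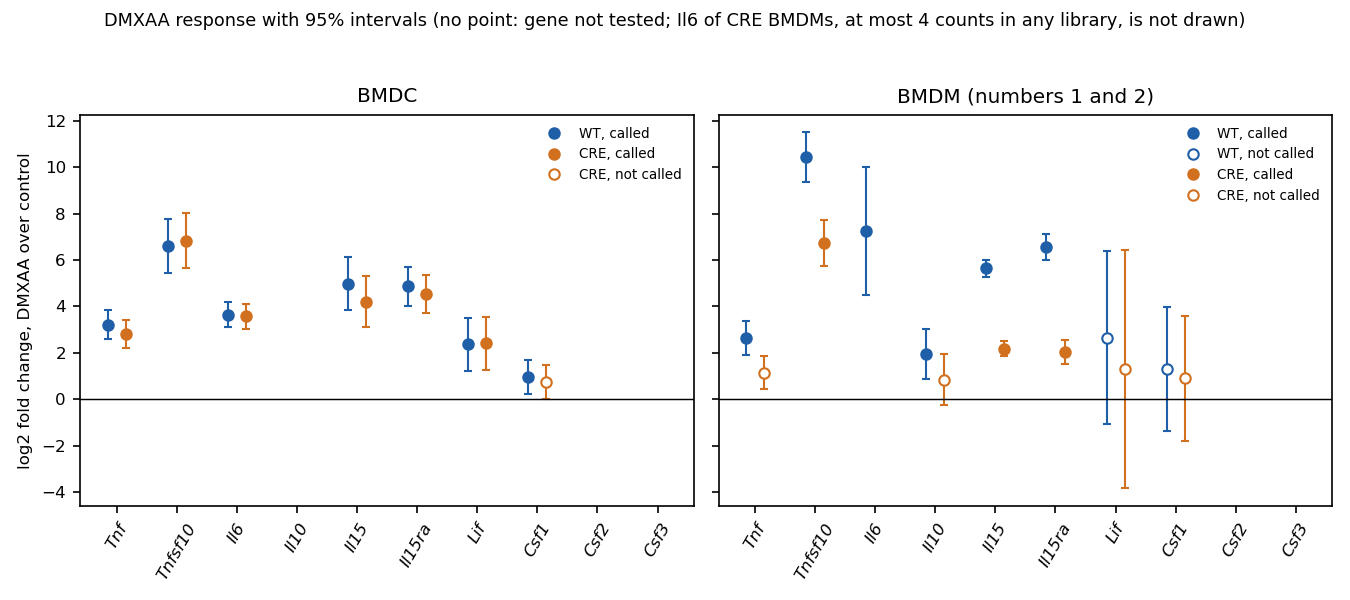
Log2 fold change of DMXAA over control for each tested member, with 95% confidence intervals, in WT- and CRE-labelled BMDCs and BMDMs. Il6 of CRE-labelled BMDMs is not drawn because it had at most 4 reads. The BMDC labels lie side by side for every member, while in BMDMs the CRE-labelled points of Tnfsf10 (6.74 against 10.44), Il15 (2.18 against 5.64) and Il15ra (2.05 against 6.54) lie below the WT-labelled ones.

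The comparison of CRE with WT was one of labels, since Tmem173 transcript was called lower in the CRE label only in BMDMs under DMXAA. How far these transcripts depend on STING was not tested. Under DMXAA, CRE-labelled BMDMs had lower levels of 5 of the 10 genes than WT-labelled BMDMs, where 19.2% of all genes tested were called and 9.99% were called lower. Il15ra was 25.4-fold lower (log2 −4.67 ± 0.21, adjusted p = 0.000529), Tnfsf10 10.6-fold lower (−3.40 ± 0.30, adjusted p = 0.00146) and Il15 7.49-fold lower (−2.91 ± 0.13, adjusted p = 0.000529). Tnf was 5.82-fold lower (−2.54 ± 0.31, adjusted p = 0.00348) and Il6 differed by −6.61 ± 1.08 on the log2 scale (adjusted p = 0.0128), a value that rests on 4 reads and was −5.65 without treated CRE-labelled library 1 and −10.76 without library 2. Il6 had reached the filter only through the treated WT-labelled libraries, the higher group of this comparison. Its test was thus bound to meet a difference, and the count of 5 includes it. Marker lists moved with the label too. The dendritic cell list summed to 560 and 585 CPM in treated CRE-labelled and 168 and 259 CPM in treated WT-labelled BMDMs (662 and 666 against 304 and 324 CPM in control), most of it Itgax, while Flt3, Cd209a and Ccr7 stayed at or below 0.243 CPM. The macrophage list summed to 9585 and 9746 CPM against 11430 and 13230 CPM (12690 and 12830 against 19320 and 21350 CPM in control), with none of its 8 genes at 0. Its most abundant gene was Lyz2, the gene that drives Cre, at 3126 to 15860 CPM. Csf1r of the same list was not lower in the CRE label, with mean FPKM of 407 against 350 under DMXAA and 385 against 350 in control. The part of these lists in the differences was not tested. The calls of Tnf and Il6 were lost when either treated CRE-labelled library was left out (adjusted p from 0.0529 to 0.08). Il10 (−1.27 ± 0.44, adjusted p = 0.092), Lif (−5.30 ± 1.85, adjusted p = 0.094) and Csf1 (−3.19 ± 1.2, adjusted p = 0.115) missed the threshold, although Lif and Csf1 were called too by DESeq2 and by limma-voom. Lif had reached the filter only through the WT-labelled libraries numbered 2, so a lower CRE-labelled value was built into its test. The fibroblast list summed to 33.1 and 439 CPM in treated WT-labelled and 33.4 and 34.5 CPM in treated CRE-labelled BMDMs. Its part in the Lif and Csf1 values was not tested. Lower RNA per cell and fewer expressing cells cannot be told apart in such bulk libraries.

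In BMDM controls 0 of the 10 were called between the labels by edgeR, DESeq2 or limma-voom. By edgeR the background was 0.0432%, which is 5 genes, with 793 at an unadjusted p below 0.05, while DESeq2 called 126 genes and limma-voom 8. The members nearest to a call were Il15 (0.55 ± 0.14, CRE-labelled higher, unadjusted p = 0.0055, adjusted p = 0.514) and Tnf (−1.03 ± 0.30, CRE-labelled lower, unadjusted p = 0.011, adjusted p = 0.606). The test of the difference between the responses, the label by treatment interaction, called 3 of the 10, all smaller in CRE-labelled BMDMs, against 3.66% of genes called and 2.28% called lower. Of these, Il15ra and Tnfsf10 were tested only because of their treated libraries, and Il15 reached the filter in every library. The values were Il15ra (log2 −4.49 ± 0.30, adjusted p = 0.00408), Il15 (−3.46 ± 0.19, adjusted p = 0.00408) and Tnfsf10 (−3.70 ± 0.69, adjusted p = 0.0422). The Tnf interaction of −1.51 ± 0.42 missed the threshold (adjusted p = 0.106), but was called by DESeq2 (adjusted p = 0.00516), by limma-voom (adjusted p = 0.0377) and without the filter on low values (adjusted p = 3.76e-05). No interaction call remained when CRE-labelled control library 1 or either treated CRE-labelled library was left out (for Il15, adjusted p = 0.0634, 0.0801 and 0.0668).

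**Figure D4:**
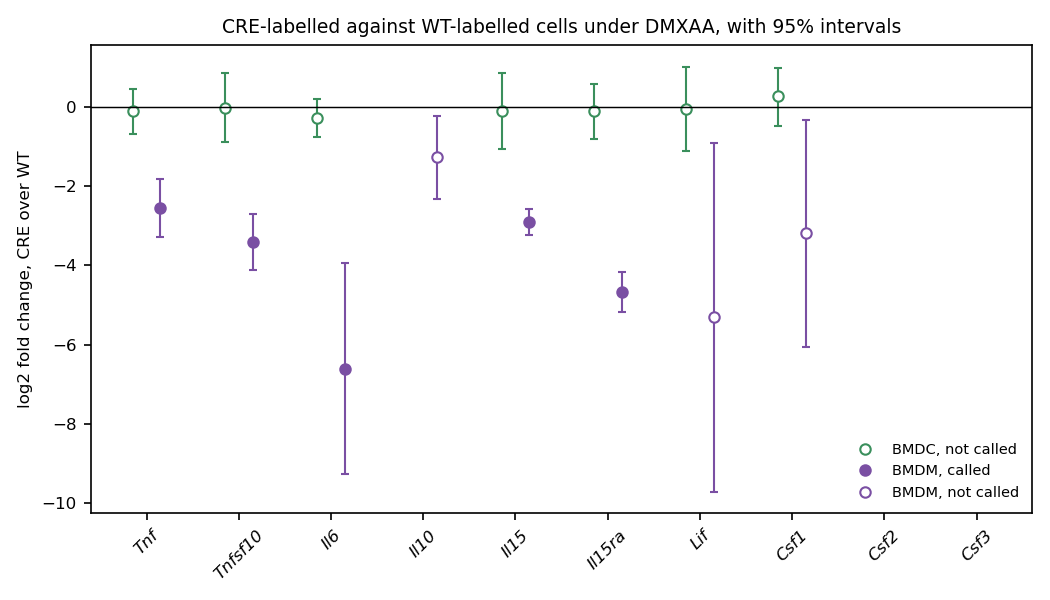
Log2 ratio of CRE-labelled over WT-labelled libraries under DMXAA for each tested member, with 95% confidence intervals, in BMDCs (green) and BMDMs (purple). BMDC points lie between −0.28 and 0.27 with intervals that cross 0, and the BMDM points of Tnf, Tnfsf10, Il6, Il15 and Il15ra lie between −6.61 and −2.54.

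In BMDCs 0 members were called between the labels in control, under DMXAA or in the response, and 0% of the 12126 genes were called in each of the 3 comparisons by edgeR, with 99, 108 and 60 genes at an unadjusted p under 0.05. DESeq2 called 0, 0 and 1 genes and limma-voom 0 in each. The intervals give the differences between the labelled groups as they stand. They pool CRE-labelled libraries 1 and 3, each close to a WT-labelled library, so they do not bound a difference of genotype. Under DMXAA the 95% interval of the CRE over WT log2 ratio was −0.76 to 0.21 for Il6, −0.69 to 0.47 for Tnf, −0.81 to 0.59 for Il15ra and −0.89 to 0.85 for Tnfsf10. It was −1.07 to 0.86 for Il15, −1.11 to 1.02 for Lif and −0.47 to 1.0 for Csf1. Alternative fits, other than those leaving out 1 library, gave lowest ratios of −0.72 for Tnf, −0.82 for Il15ra and −1.37 for Lif. These lay below the intervals, and the lowest ratios of Il6, Tnfsf10, Il15 and Csf1 did not. The BMDM difference of each of Tnf, Tnfsf10, Il15 and Il15ra lay outside the BMDC interval of that gene; the contrast between the cell types itself was not tested. In control the widest difference was that of Il15, 0.67 with an interval of −0.35 to 1.68. With the CRE-labelled libraries 1 and 3 left out, which lay close to WT-labelled libraries, 1 library stood in each CRE-labelled group, and the spread came from the WT-labelled groups alone. In that fit no member was called between the labels, although 324 of the 12126 genes were in control, 112 under DMXAA and 0 in the interaction. The response of the lone CRE-labelled libraries numbered 2 had 5 of the 10 called higher, where 413 genes were called in all. Tnf then rose by 2.02 (adjusted p = 0.0391) and Il15 by 3.18 on the log2 scale, and Lif (1.63, adjusted p = 0.386) was no longer called.

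BMDCs and BMDMs of the WT label differed most in Il6. In control Il6 was 354-fold higher in BMDCs by reads (95% counting interval 121 to 1720, 3 reads in the BMDM libraries) and its log2 difference of 8.34 ± 0.61 was called (adjusted p = 2.47e-07). Il10 was at least 4.85-fold higher in BMDM controls, since no BMDC control had a read, and Il15ra was higher in BMDCs by 1.06 ± 0.36 (adjusted p = 0.0374). These 3 of the 10 were called where 28.5% of 13368 genes were. The Il15ra call was lost with limma-voom, with only the groups compared and with number as a block. It was also lost in 4 of 20 edgeR fits that left out 1 library (adjusted p up to 0.158). Under DMXAA 2 of the 10 were called, where 30.6% of genes were. Il6 was higher in BMDCs by 4.76 ± 0.41 (adjusted p = 1.39e-06) and Tnfsf10 higher in BMDMs, with a BMDC over BMDM difference of −2.11 ± 0.40 (adjusted p = 0.000893). The response itself was smaller in BMDCs for both, by −3.82 ± 0.77 for Tnfsf10 (adjusted p = 0.0145) and −3.58 ± 0.78 for Il6 (adjusted p = 0.0257), where 2.61% of genes were called and 1.73% were called lower. The value for Il6 rests on 3 reads in BMDM controls. Both calls were lost without WT-labelled BMDM control library 1 (adjusted p = 0.0679 for Tnfsf10 and 0.124 for Il6) or treated library 1 (adjusted p = 0.0637 and 0.062). Cell type here cannot be told apart from the culture medium.

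Ordered by mean FPKM, Il15 ran from treated WT-labelled BMDMs (124 ± 5.11, SD, n = 2) over treated WT- and CRE-labelled BMDCs (87.8 ± 6.91 and 81.0 ± 3.47, n = 3) to treated CRE-labelled BMDMs and then the 4 control groups, which overlapped at 1.89 to 8.44 FPKM. Treated WT- and CRE-labelled BMDCs overlapped, and the other steps did not. Il15ra had the same order at the top, with 51.2 ± 7.23 (n = 2), 32.9 ± 4.80 and 30.3 ± 10.1 FPKM (n = 3). This is an order of FPKM values, and the test of WT-labelled BMDCs against BMDMs under DMXAA called neither Il15 nor Il15ra. Tnfsf10 ran from 91.2 ± 41.2 FPKM (n = 2) in treated WT-labelled BMDMs to 20.3 ± 5.28 and 19.9 ± 7.44 FPKM (n = 3) in treated WT- and CRE-labelled BMDCs and 8.33 ± 0.196 FPKM (n = 2) in treated CRE-labelled BMDMs. For Tnf the top 3 groups, treated WT-labelled BMDMs (210 ± 61.6 FPKM, n = 2), treated WT-labelled BMDCs (193 ± 27.2, n = 3) and treated CRE-labelled BMDCs (177 ± 53.6, n = 3), overlapped. Il6 separated by cell type, with both treated BMDC groups (141 ± 17.9 and 115 ± 27.2 FPKM, n = 3) above both BMDC controls (10.95 ± 0.618 and 9.46 ± 2.49 FPKM), and these above every BMDM group.

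Receptors of these ligands changed in both directions. Of a 16-gene receptor list, 8 of 14 tested genes were called in WT-labelled BMDCs (6 higher, 2 lower, median log2 fold change 0.30 against 0.01 over all genes) and 6 in CRE-labelled BMDCs (4 higher, 2 lower, median 0.21 against −0.01). Over all genes, 32.2% were called in WT-labelled and 25.4% in CRE-labelled BMDCs. Il10ra, the ligand-binding IL-10 receptor chain, rose by 1.85 ± 0.15 in WT-labelled BMDCs (adjusted p = 7.45e-06), and Il2rg, the signalling chain shared by the IL-15 receptor, by 1.5 ± 0.22 (adjusted p = 0.000427). Tnfrsf1a and Tnfrsf1b, the TNF receptors, rose by 0.77 ± 0.17 and 1.76 ± 0.51. The ligand-specific chains Il6ra (−1.43 ± 0.33, adjusted p = 0.00625) and Lifr (−2.44 ± 0.56, adjusted p = 0.00605) were lower, while Il6st, which encodes gp130, was not called (−0.10, adjusted p = 0.865). In WT-labelled BMDMs 5 of 13 were called, all higher (median 0.69 against −0.08), namely Tnfrsf1b (1.86), Il10ra (1.71), Tnfrsf1a (1.67), Csf3r (2.49) and Il2rg (1.81), and in CRE-labelled BMDMs 1 was, Tnfrsf1b (0.78 ± 0.12, adjusted p = 0.0124, list median 0.47 against −0.01). These shares were near the 39.2% and 10% of all genes called in WT- and CRE-labelled BMDMs, where 18.4% and 7.28% were called higher. Under DMXAA CRE-labelled BMDMs had less Il10ra (−1.10), Tnfrsf1b (−0.70) and Tnfrsf1a (−0.73) and more Il6st (0.92) and Csf2ra (0.45) than WT-labelled BMDMs. The interaction was called for Tnfrsf1b (−1.08 ± 0.18, adjusted p = 0.0305) and Il10ra (−1.42 ± 0.24, adjusted p = 0.0342). Csf1r, the M-CSF receptor, was lower in WT-labelled BMDCs than in WT-labelled BMDMs, with a log2 difference of −2.87 ± 0.23 in control and −3.35 ± 0.23 under DMXAA.

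Of 16 other ligands of the same families, 4 of 7 tested were called in WT-labelled BMDCs, all higher (median 1.47 against 0.01, with 32.2% of all genes called), and the same number in CRE-labelled BMDCs (median 1.30 against −0.01, with 25.4% of all genes called). They were Osm, a further gp130 ligand (1.47 and 1.30), Tnfsf4, the OX40 ligand (4.16 and 3.51), Tnfsf9, the 4-1BB ligand (2.63 and 2.42), and Lta, lymphotoxin alpha (3.52 and 2.59). In WT-labelled BMDMs Tnfsf4 (at least 79.9-fold, from 0 to 312 reads), Lta (40.9-fold, interval 13.5 to 203, from 3 reads) and Flt3l (log2 1.04) were called of 8 tested, all 3 having reached the filter only through the treated WT-labelled libraries, and in CRE-labelled BMDMs 0 were by edgeR (list median 0.26, 1 gene at an unadjusted p under 0.05). The 3 of 8 are near the 39.2% of all genes called in WT-labelled BMDMs. In CRE-labelled BMDMs 10% of all genes were called. Treated CRE-labelled BMDMs had less Tnfsf4 (−4.79), Lta (−4.99) and Tnfsf9 (−1.41) than WT-labelled ones, where 19.2% of all genes were called and 9.99% were called lower. Tnfsf4 and Lta had reached the filter only through the treated WT-labelled libraries, so lower CRE-labelled values were built into their tests. By reads Lta was 33.7-fold lower (counting interval 11.1 to 167), from 3 reads in the treated CRE-labelled libraries, and Tnfsf4 had 14 reads there. A 10-gene list for the shedding of TNF and the control of cytokine mRNA gave 4 called genes in each BMDC label, all higher (medians 0.31 and 0.33), a share near the 32.2% and 25.4% of all genes called. They were Arid5a (2.41 and 2.07), which stabilises Il6 mRNA, Zfp36 (1.12 and 0.92), which promotes decay of Tnf mRNA, Adam17 (0.88 and 0.72), the TNF sheddase, and its partner Rhbdf2 (1.10 and 1.16). In WT-labelled BMDMs 5 were higher and 1 lower, led by Rhbdf2 (2.33 ± 0.17, adjusted p = 0.000155), Zfp36 (1.27 ± 0.12, adjusted p = 0.000453) and Arid5a (3.59 ± 0.46, adjusted p = 0.00154), and in CRE-labelled BMDMs 3 were higher, Zfp36 (1.02), Rhbdf2 (1.15) and Zfp36l2 (0.56). Rhbdf2 (−1.58), Arid5a (−3.31) and Adam17 (−0.78) were lower in treated CRE- than in treated WT-labelled BMDMs.

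The BMDM libraries numbered 3, 1 per label and treatment, are given as values without a test. Tnf was at 0 to 0.101 FPKM and Il10 at 0 in all 4, and Tnfsf10 had reads only in the treated WT-labelled library (0.0625 FPKM). Il6 was at 3.52 and 6.41 FPKM in WT-labelled control and DMXAA and at 3.09 and 7.10 FPKM in the CRE-labelled ones. Il15 went from 1.19 to 4.15 FPKM and from 0.334 to 2.53 FPKM, and Il15ra from 0.170 to 0.583 FPKM and from 0.202 to 0.423 FPKM. Lif measured 2.61, 5.32, 6.198 and 7.06 FPKM, in the order of WT-labelled control and DMXAA, then CRE-labelled control and DMXAA. Csf2 measured 0.9998, 2.47, 0.354 and 0.869 FPKM in that order, and Csf3 0.775, 1.69, 0.501 and 0.260 FPKM. These libraries thus held Il6, Lif, Csf1, Csf2 and Csf3 and almost no Tnf, Tnfsf10 or Il10. With them included, no member was called in any comparison that involved BMDMs. By then 0 of 12379 genes were called in each comparison within BMDMs and 0 of 13732 in the cell type interaction, but 1169 and 1324 of 13732 were called between cell types in control and under DMXAA.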

How the data were processed

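PolyA RNA was extracted with TRIzol, and libraries were made with a NEBNext Ultra kit. Per the labels' processing notes, reads were handled with CASAVA 1.8, fastp, HISAT2 2.0.5 and featureCounts 1.5.0-p3 on GRCm38 (mm10), and the strand setting is not given in the sources used here. The authors deposited raw counts per gene, FPKM values scaled by an adjusted library size, and columns of their own DESeq2 1.20.0 comparisons (log2 fold changes and p-values), which were not used. The main test was edgeR 4.0.16 (quasi-likelihood, TMM, R 4.3.3, two-sided, Benjamini-Hochberg threshold 0.05) on the deposited counts of 12 BMDC libraries, of 8 BMDM libraries numbered 1 and 2, or of all 20, for genes of at least 1 FPKM in 3, 2 or 2 libraries. DESeq2 1.42.0 and limma 3.58.1 (voom, with the spread modelled by label) were alternatives. The scripts were tested on simulated data. The main test had no block for library number, so its p-values and shares of genes called are unpaired. Treated and control BMDC libraries of one number and label deviated together from the group means (r = 0.40 to 0.68 in all 6 pairs, against −0.50 to 0.05 across labels). A block within label was therefore fitted as an alternative. In BMDMs, with 2 libraries per group, the same-numbered pairs of a label give the same r by construction, and the numbers were not taken as pairing. A gene with reads of 0 in a group was bounded by 3 reads per library. All intervals are 95%. Those of ratios of reads cover counting error only, and those of log2 values come from the edgeR fit, with its spread between libraries. All 10 members were named, and of the other lists those called, at most 3 with the smallest p per comparison, plus the members' receptors. Lta, Rhbdf2 in BMDCs and the 4-gene sets were completed after their values were seen. The members and lists were chosen with earlier results of these data known. Promoter sequences are from RefSeq (GRCm38.p6).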

Additional observations from a re-analysis of the deposited data

Results flagged for a closer look

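In BMDMs the response to DMXAA differed between the labels for 3 members by the interaction test, with CRE-labelled minus WT-labelled log2 responses of −3.70 for Tnfsf10, −3.46 for Il15 and −4.49 for Il15ra (edgeR adjusted p = 0.0422, 0.00408 and 0.00408). In WT-labelled cells the response differed between cell types for Tnfsf10 (BMDC minus BMDM −3.82, adjusted p = 0.0145) and Il6 (−3.58, adjusted p = 0.0257). The BMDM libraries numbered 3, which entered no comparison, had a mean DMXAA FPKM above the mean control FPKM by a ratio of 2.04 for Il6, 4.38 for Il15 and 2.70 for Il15ra, with every treated library above every control. With 1 library per label and treatment this was not tested. Groups of 2 and 3 libraries are too small for a check of single outlying libraries.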

How the results depend on the processing

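Of 276 alternative counts of called members, 253 kept within 1.5 times the reported count. These include comparisons of labels in BMDCs and in BMDM controls, where the reported count was 0 and a count of 0 was scored as kept. Of 772 alternative values of single called members 702 kept their direction and call, 69 lost the call and 1 reversed. With the BMDM libraries numbered 3 included, 0 members were called in each BMDM and cell type comparison, and the Il6 cell type interaction reversed to 1.38 (adjusted p = 1). The CRE-labelled BMDM response had 5 called members with only the groups compared and 5 with WT-labelled libraries 2 left out, an alternative chosen after seeing the data, which also gave 3 in the control comparison of labels and 5 in the interaction. Without the filter on low values the BMDM control comparison had 3, the cell type comparison in control 5 and the cell type interaction 4, and DESeq2 gave 4 and limma-voom, here always with the spread modelled by label, 0 in the last. Leaving out 1 library at a time gave 3 to 7 called members in BMDM CRE against WT under DMXAA, 0 to 3 in the BMDM interaction and 0 to 3 in the cell type interaction. The Tnfsf10 interaction in BMDMs was lost in 6 of 8 such fits. Calls over all genes moved most in BMDMs, from 4531 to 2380 with limma-voom, 1687 with only the groups compared and 7285 without WT-labelled libraries 2 for the WT-labelled response, and from 1157 to 1908 (DESeq2), 2120 (no filter), 6332 (limma-voom), 6389 (only the groups compared), 2920 (block within label) and 6368 (without WT-labelled libraries 2) for the CRE-labelled one. CRE against WT under DMXAA went from 2227 to 3630 without the filter and 6145 without WT-labelled libraries 2, in control from 5 to 700, 126 (DESeq2), 8 (limma-voom), 0 (only the groups compared) and 2520, and the interaction from 424 to 1342, 1195 (DESeq2), 1702 (block within label) and 5334. The CRE-labelled BMDC response went from 3084 to 1853 with only the groups compared and 413 without CRE-labelled libraries 1 and 3, and the cell type interaction from 349 to 836 (no filter), 738 (DESeq2), 229 (limma-voom) and 196 (only the groups compared). The cause of these shifts was not tested. The fits without WT-labelled libraries 2 in BMDMs left 1 library in each WT-labelled group. Those without CRE-labelled libraries 1 and 3 in BMDCs left 1 in each CRE-labelled group. Their counts do not measure the spread within those groups.

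With the number as a replicate block across labels, the counts of called members were 6 for the WT-labelled BMDC response, where Csf1 (1.0, adjusted p = 0.0559) was lost. Blocking within label changed no other call in BMDCs than that of CRE-labelled Csf1. In BMDMs same-numbered libraries correlated at 0.66 in the WT and 0.03 in the CRE label. With 2 libraries per group the pairs of a label give the same value by construction. There the block within label gave 8, 4 and 4 called members for the WT-labelled response, the CRE-labelled response and the interaction. It added Lif (2.75, adjusted p = 0.000451) and Csf1 (2.05, adjusted p = 0.0133) in WT-labelled BMDMs and Tnf in the other two. BMDM tests rest on 2 libraries per group, the CRE-labelled pairs being close (SD of log2 ratios 0.16 and 0.174 against 0.326 to 0.796), and Csf2, Csf3 and BMDC Il10 were too shallow for the main test.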

Other observations

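For each tested member the genes whose log2(CPM + 1) ran most closely with it over the 20 libraries (12 BMDC and 8 BMDM) are given as a description. The libraries share treatment and culture, which also move many other genes. The nearest were Mdm2, an E3 ligase for p53, to Tnf (Pearson r = 0.987), Misp and Tmem67 to Tnfsf10 (both 0.995), and Tnfsf4 to Il6 (0.989), followed by Mir155hg, the host transcript of miR-155 (0.983). Tbk1, the kinase that acts after STING, was the nearest to Il10 (0.969). Pcgf5 was the nearest to Il15 (0.985) and Angpt1 to Il15ra (0.987). Lif ran most closely with Pgf (0.953) and Csf1 with Clmp (0.936) and Inhba (0.931), at lower values than the other members.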
